A study of Canis lupus familiaris with 8 samples.

Results

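miR-140, listed as cfa-miR-140, was 1 of 452 mature miRNAs in a table of small RNA sequencing from vesicles (exosomes) shed by dog mammary cells. It was taken by its name and chosen by its levels in these data, which were high on average and very uneven over the 8 libraries. Its levels are therefore given as a description, with no test of their unevenness. The study asked which vesicle miRNAs differ between malignant and normal cells. It used 5 canine mammary tumour (CMT) lines of carcinoma origin, named CMT-12, CMT-27, CMT-28, CMT-47 and CMT-119, with 1 library each. The other group was 3 biological replicates of normal canine mammary cells (CMEC1, CMEC2 and CMEC3), named epithelial in the design text. Whether these came from separate dogs is not said, so a p-value covers only how these samples vary, which may be technical. Both groups grew without serum. Medium of the first 24 hours was discarded and that of the next 48 hours was taken on day 3, with no drug or genetic change named.

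miRNAs are short RNAs that guide a silencing complex to matching mRNAs, which are then repressed or degraded, and some leave the cell in vesicles. miR-140 is best known from cartilage. In mice and humans it lies within the ubiquitin ligase gene WWP2 and is driven in cartilage by the transcription factor SOX9, and mice without it have skeletal growth defects and early joint degeneration. In human breast it has been described as reduced in tumour tissue and in stem-like tumour cells.

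In canFam3, as the table gives it, the mature miR-140 lies on chromosome 5 from 79814256 to 79814276, a stretch of 21 bases on the minus strand. It had 1 locus in the table, so its reads were not split over listed copies. The arm of the hairpin was not named, and the sequence was not used here. In RefSeq's gene table for another dog assembly, UU_Cfam_GSD_1.0, MIR140 lies inside the span of WWP2, between the protein-coding neighbours PSMD7 and NOB1. Whether the stretch is intronic or exonic was not analysed here. The nearest other miRNAs of the table on the chromosome were miR-328, at 2.35 Mb, and miR-34a, at 17.3 Mb on the other side. Neither was abundant: miR-328 had deposited values of 2.32 to 29.0 and miR-34a, a p53 target, of 1 to 8.32.

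Each level is given on a pair of scales. The first is the deposited normalised signal. The second is the share of a library's recovered reads, which does not depend on the deposited scaling. The values above the table's floor of 1 were whole multiples of 1 step per library for 99.0% to 100% of loci, within 0.05 steps, and each was divided by that step to give reads. Recovered reads over all miRNAs ran from 81138 in CMT-12 and 85906 in CMEC2 to 1405893 in CMT-27. These cover miRNA loci of the table only.

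miR-140 was one of the leading miRNAs in 3 libraries and a minor one in the other 5. In the normal samples its deposited signal was 35053 in CMEC1, 105 in CMEC2 and 370.1 in CMEC3. In the tumour lines it was 18236 in CMT-47, 6360.3 in CMT-119, 2395 in CMT-27, 587 in CMT-28 and 237 in CMT-12. CMEC1 was the highest and CMEC2 the lowest of all libraries, so the normal samples held both ends of the range and the groups overlapped entirely.

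As a share of recovered reads, miR-140 made up 7.97% in CMEC1 (95% Wilson interval 7.89% to 8.05%, 32222 reads). It made up 2.52% in CMT-47 (2.49% to 2.55%, 26282 reads) and 1.32% in CMT-119 (1.29% to 1.35%, 7106 reads). The 3 libraries with more than 1% thus came from both groups. In the other lines the share was 0.246% in CMT-27 (0.238% to 0.255%, 3462 reads), 0.180% in CMT-28 (0.171% to 0.189%, 1520 reads) and 0.126% in CMT-12 (0.104% to 0.153%, 102 reads). In the other normal samples it was 0.0770% in CMEC3 (0.0683% to 0.0868%, 267 reads) and 0.0431% in CMEC2 (0.0313% to 0.0594%, 37 reads). The intervals hold counting error alone, because reads carried no molecular identifiers and may be copies of 1 molecule. The total behind these shares counts 1 locus per miRNA. With all loci counted, the share was 7.18% in CMEC1, 2.40% in CMT-47 and 1.21% in CMT-119. That lay below the interval in CMEC1 and in the tumour lines except CMT-12, and inside it in CMT-12, CMEC2 and CMEC3. The order of libraries stayed the same.

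The highest share was 185-fold the lowest. For none of the 7 neighbouring pairs in this order did the counting intervals overlap, but each line or sample had 1 library, so the spread of a repeat library is unknown. The largest step in share lay between CMT-119 and CMT-27, at 5.34-fold, against 2.66-fold in deposited signal. The step between CMT-27 and CMT-28 was 1.37-fold in share and 4.08-fold in deposited signal. Where the lower libraries begin thus depended on the scale. CMEC3 stood below CMT-12 in share and above it in deposited signal, which was the only change of order between the scales.

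**Figure D1:**
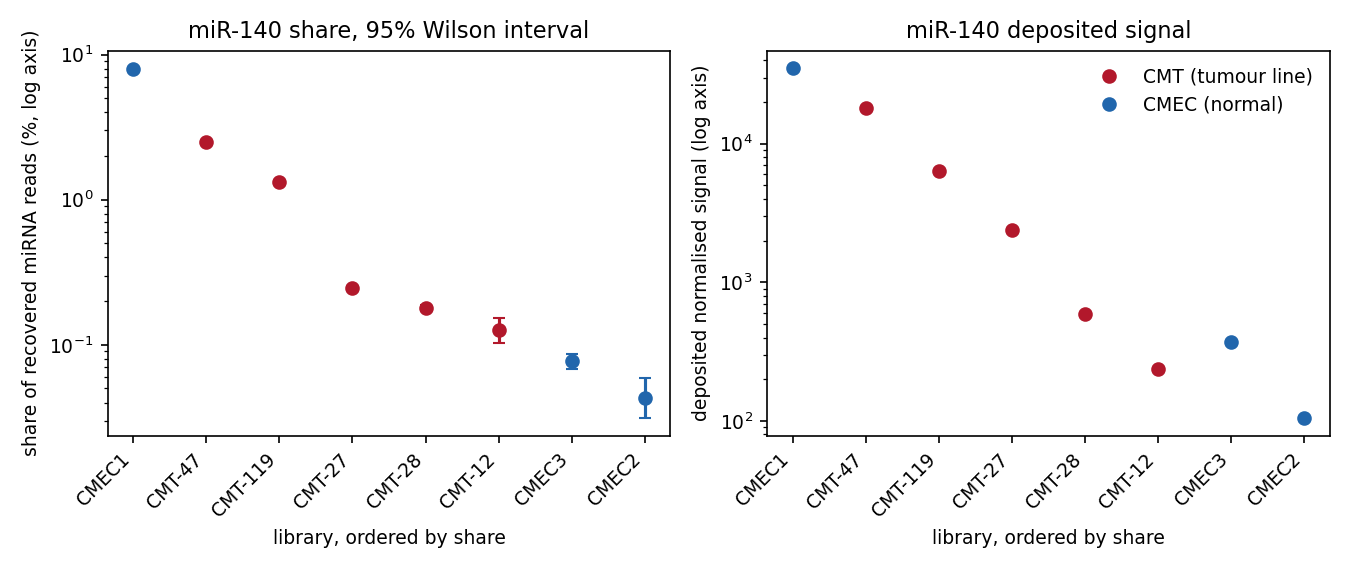
miR-140 in each library, as a share of recovered miRNA reads in percent with its 95% Wilson counting interval (left) and as deposited normalised signal (right), both on log axes. Red points are tumour lines (CMT) and blue points normal samples (CMEC). CMEC1, at 7.97%, stands above every tumour line, while CMEC3 and CMEC2, at 0.0770% and 0.0431%, stand below every tumour line in share.

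The same unevenness appeared in the rank of miR-140 within each library. In CMEC1 it was the miRNA with rank 2, behind miR-21, the leading vesicle miRNA of these libraries, and ahead of miR-30a. In CMT-47 it had rank 5, behind miR-21, miR-143, miR-148a and let-7b, and in CMT-119 rank 12. It had rank 31 in CMT-28, 37 in CMT-27, 40 in CMEC3, 52 in CMEC2 and 53 in CMT-12, where ties take the higher rank. Measured against miR-21 alone, miR-140 reads numbered 15.4% of miR-21 reads in CMEC1, 4.62% in CMT-47 and 2.44% in CMT-119. The other libraries had 0.154% (CMEC2) to 0.505% (CMT-12). CMEC1 and CMT-47 together supplied most miR-140 reads of the series, with 45.4% and 37.0% of them.

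Among abundant miRNAs, here those with a mean share of at least 0.1% over the 8 libraries, miR-140 was one of 53. Its SD over libraries was 3.07 on the log2(signal + 1) scale, against a median of 1.55 for the other 52. Of these, 8 had a larger SD.

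Malignant against normal vesicles was the comparison of the study, and miR-140 did not pass its test. The mean of log2(signal + 1) was 11.02 ± 2.53 in the CMT lines (SD, n = 5) and 10.12 ± 4.40 in the CMEC samples (SD, n = 3). The difference, CMT minus CMEC, was 0.90 ± 1.66 (SE), with a 95% interval from -2.61 to 4.41 and a limma adjusted p of 0.781 over the 193 miRNAs tested. The interval includes differences of several log2 units in either direction, so these libraries do not exclude a difference of that size. By unadjusted p, miR-140 had rank 146 of the 193. limma called 0 of them at an adjusted p under 0.05 (0.00%), and 21 had an unadjusted p under 0.05 (10.9%). limma-voom on recovered reads also called 0.

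The mean share had the opposite sign. It was 0.876% ± 1.04 in the CMT lines (SD, n = 5) and 2.70% ± 4.57 in the CMEC samples (SD, n = 3), a difference of -1.82 percentage points (two-sided exact permutation p = 0.554 over 56 splits, of which the smallest possible p is 0.0179). In both groups the SD was larger than the mean. On the log2 scale the same shares differed by 0.59 in the other direction (exact permutation p = 0.750). CMEC1 alone carried the negative sign: without it the mean share was 0.816 percentage points higher in CMT. The exact permutation p was then 0.333 over 21 splits, with a smallest possible p of 0.0476. Every tumour line exceeded both remaining normal samples in share.

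CMEC1 and CMEC2 each decided the fitted difference as well. Without CMEC1 the log2 difference was 3.39 ± 1.42 (SE; limma adjusted p = 0.274, unadjusted 0.0277), and limma then called 6 miRNAs, miR-140 not among them. Without CMEC2 it was -0.79 ± 1.72 (SE; limma adjusted p = 0.953). With sample weights, which gave CMEC1 a weight of 0.553, CMT-27 0.177 and CMT-119 3.36, it was 3.57 ± 1.23 (SE; limma adjusted p = 0.0821). The sign also turned with scaling, to -0.088 after quantile normalisation and -0.37 with limma-voom. The median log2 difference over all tested miRNAs was 0.75 as deposited, so miR-140 stood 0.16 above it. Median centring moved miR-140 to 0.07.

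**Figure D2:**
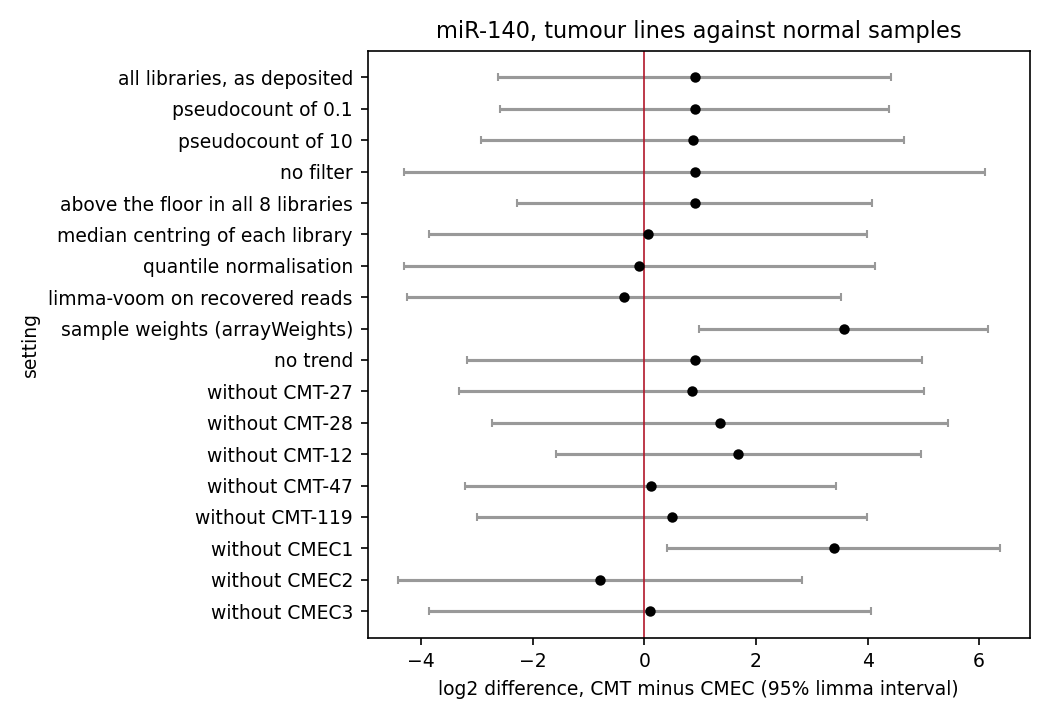
Log2 difference of miR-140, CMT minus CMEC, with its 95% limma interval, for all libraries as deposited, for each alternative setting and with each library left out. The intervals include 0 except with sample weights (3.57) and without CMEC1 (3.39), and neither passed after adjustment over all tested miRNAs.

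CMEC1 was nearer to some tumour lines than to the other normal samples over the whole profile, not in miR-140 alone. Over the 192 other tested miRNAs, the Spearman correlation of CMEC1 was 0.900 with CMT-47 and 0.858 with CMT-119, against 0.801 with CMEC3 and 0.757 with CMEC2. CMT-47 and CMT-119 had 0.940 with each other, the highest of all pairs. CMT-28, poor in miR-140, was also near these lines, with 0.872 to CMT-119 and 0.870 to CMT-47. Its correlation with CMEC1 was 0.824, also above those of CMEC3 and CMEC2 with CMEC1. Whether likeness of the whole profile goes with the level of miR-140 was not tested. These correlations are across miRNAs, whose values do not count as replicates.

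miR-30a and miR-221 were the abundant miRNAs whose order over libraries was most like that of miR-140, with the same rho in share. miR-30a belongs to the miR-30 family, described in human cells as restraining the transition from epithelial to mesenchymal state. For miR-30a, Spearman's rho of the shares was 0.81 over the 8 libraries and Pearson's r of the log2 shares was 0.93. The other abundant members of its family had lower rho, 0.31 for miR-30d and 0.24 for miR-30c. Of the 52 other abundant miRNAs, miR-30a was the only 1 with the same 3 highest libraries as miR-140. About 1 match among 52 would arise if all 56 possible sets of 3 libraries were equally likely. The share of miR-30a was 4.88% in CMEC1, 2.44% in CMT-47 and 3.37% in CMT-119. It was 0.602% in CMT-27, and 0.0895% (CMT-28) to 0.168% (CMT-12) in the other 4. Within these 8 libraries the ratio of miR-140 to miR-30a reads stayed between 0.303 (CMEC2) and 2.01 (CMT-28), while each of them varied far more. Without CMEC1 and CMT-47, the libraries farthest from the median of miR-140, rho was 0.60 and r was 0.87 over 6 libraries.

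miR-221, with the same rho of 0.81, had r = 0.84. It is known in human tumours for repressing the cell cycle inhibitor p27. Its share was 1.12% in CMEC1, 0.630% in CMT-47, 0.533% in CMT-27 and 0.260% in CMT-119, and at most 0.136% in the other 4. CMT-27 stood above CMT-119 here, unlike in miR-140. Without CMEC1 and CMT-47 rho was 0.54 and r was 0.57. Its cluster neighbour miR-222 had a rho of 0.45, with 1.07% in CMEC1 and 0.822% in CMT-47, but 0.548% in CMEC3, where miR-140 was low.

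The other 6 of the 8 most alike followed miR-140 less closely. These were miR-8859a (rho 0.74), miR-23a (0.71), miR-21 (0.62), miR-340 (0.62), miR-9, known from neural development (0.52), and miR-191 (0.50). miR-23b tied with miR-191 in rho and was left out by its lower r, 0.11 against 0.50. miR-23a lies in a cluster with miR-27a and miR-24, which had lower rho, 0.29 and 0.40. miR-23a ranged only from 0.112% in CMEC3 to 1.44% in CMT-27. miR-9 was highest in CMT-27, at 0.576%, and at 0.00116% and 0.000866% in CMEC2 and CMEC3. miR-21 held 49.6% to 63.1% in the CMT lines other than CMT-12 and 51.8% in CMEC1, against 24.9% in CMT-12, 28.0% in CMEC2 and 32.6% in CMEC3. On the deposited signal the rho of miR-191 was 0.83, as was that of miR-30a, in place of 0.50, and per read of miR-21 it was 0.10. Over the 52 abundant miRNAs 25 had a rho above 0, 26 a rho below 0 and 1 a rho of 0, with a median of -0.01. All these correlations share libraries, depth and shares that sum to a fixed whole, so they are given as description.

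**Figure D3:**
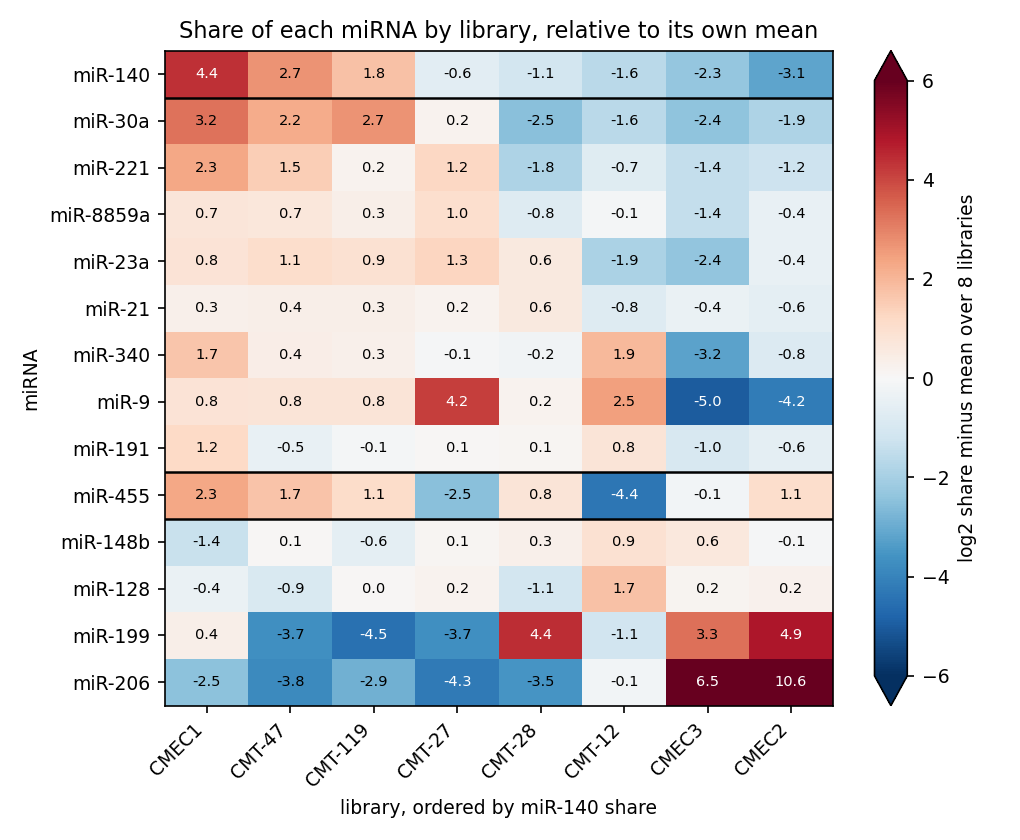
Share of each named miRNA by library, as the log2 share minus that miRNA's mean over the 8 libraries, with 0.5 reads added. Libraries run from the highest to the lowest miR-140 share. The upper block holds the 8 most alike abundant miRNAs, the next line miR-455 and the lowest block the 4 least alike. Colours end at 6 in either direction. In the miR-30a line, CMEC1, CMT-47 and CMT-119 stand above the mean by 3.24, 2.24 and 2.71.

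At the other end, the 4 abundant miRNAs least like miR-140 were miR-206, miR-199, miR-128 and miR-148b. miR-206, a skeletal muscle miRNA, was above the floor only in the 2 libraries with the lowest miR-140 share. It was at 2570 in deposited signal in CMEC2 and 298 in CMEC3, and at the floor in the other 6 (rho -0.76). Its share was 1.06% in CMEC2 and 0.0620% in CMEC3, so it counted as abundant only through CMEC2, and it was not among the tested miRNAs. With the other 6 libraries tied, its rho says no more than that it occurs in those 2. miR-199, described in mesenchymal cells, had shares of 0.667% in CMEC2, 0.494% in CMT-28 and 0.228% in CMEC3, and at most 0.0294% elsewhere (rho -0.64). miR-128 and miR-148b had rho of -0.60 and -0.57 in share but of -0.05 and 0.02 in deposited signal, so their place depended on the scale. miR-148a, abundant in milk and of the same family as miR-148b, held 24.4% in CMEC2 and 25.0% in CMEC3 and 1.09% to 4.44% in the other libraries (rho -0.43).

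**Figure D4:**
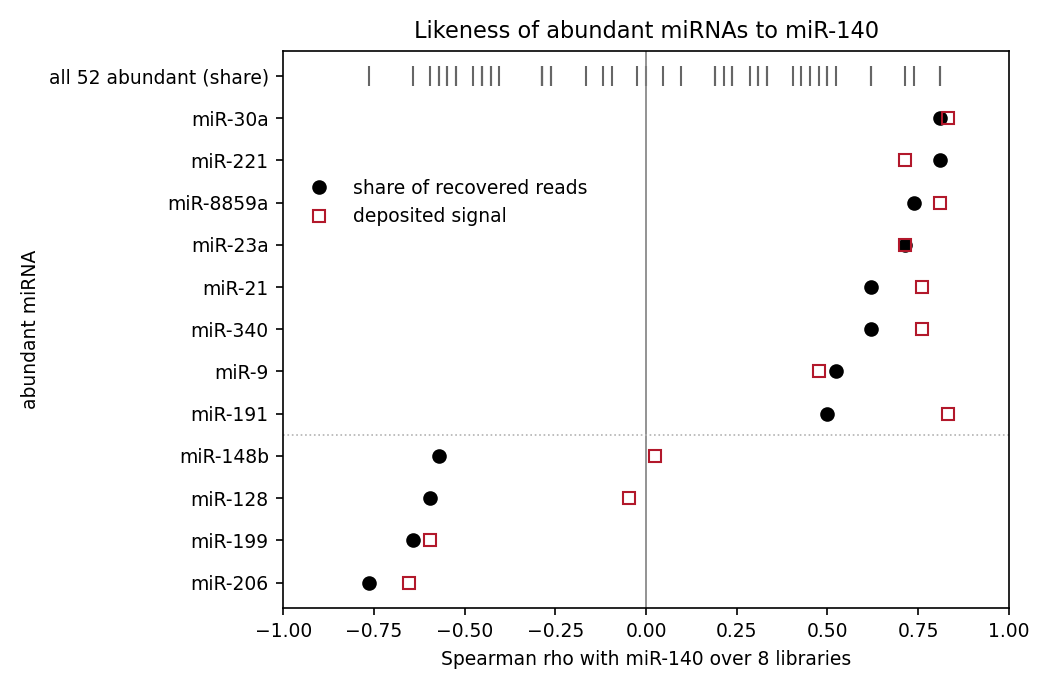
Spearman correlation over 8 libraries of the named abundant miRNAs with miR-140, in share of recovered reads (filled circles) and in deposited signal (open squares). The marks on the top line are all 52 abundant miRNAs in share. miR-30a is near 0.81 and 0.83 on the 2 scales, while miR-148b moves from -0.57 to 0.02.

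Among miRNAs described in cartilage, miR-455 shared the 3 highest libraries of miR-140. In mice and humans it lies within the collagen gene COL27A1 and is found in developing cartilage. Its deposited signal was 278 in CMEC1, 299 in CMT-47 and 132 in CMT-119, against 70.7 in CMT-28, 62.3 in CMEC2, 54.1 in CMEC3, 21.4 in CMT-27 and the floor in CMT-12. In share CMT-119 was close to the next library: miR-455 had 0.0633% in CMEC1, 0.0413% in CMT-47 and 0.0274% in CMT-119 (148 reads), against 0.0256% in CMEC2 (22 reads), the library lowest in miR-140. Its rho in share was 0.64 over 8 libraries. Without CMEC1 and CMT-47 rho fell to 0.14, so the relation rests on those 2 libraries. Of the 192 other tested miRNAs, 3 had the same 3 highest libraries as miR-140: miR-30a, miR-455 and miR-2483. The last was named after its values were seen, and it had a mean share of 0.000494%. There are 56 possible sets of 3 libraries, so about as many of the 192 would match if every set were equally likely.

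The cartilage list as a whole varied in its likeness to miR-140. Its 10 members were miR-455, miR-145, miR-146a, miR-27b, miR-199, miR-29a, miR-29b, miR-221, miR-222 and miR-22, and all were tested. limma called 0 of 10 in either direction, against 0.00% of all miRNAs tested, and 1 of 10 had an unadjusted p under 0.05, against 10.9% of all. Their median log2 difference, CMT minus CMEC, was 0.74, and that of all tested miRNAs was 0.75. Of the 9 members other than miR-455, 7 had a rho in share above 0 with miR-140 and 2 below, from -0.64 (miR-199) to 0.81 (miR-221), with a median of 0.10. In between lay miR-222 at 0.45, miR-22 at 0.43, miR-27b at 0.33, miR-146a and miR-29a at 0.10, miR-145, described to repress SOX9 in chondrocytes, at 0.05 and miR-29b at -0.10. The summed share of the list was 13.7% in CMT-12 and 10.2% in CMT-27, where miR-27b was 11.3% and 7.76%, and 6.55% in CMEC1.

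Markers of other cell types were set beside miR-140. The epithelial list (miR-200a, miR-200b, miR-200c, miR-141, miR-429, miR-203 and miR-205) was low where miR-140 was high. Its summed share was 0.00272% in CMEC1, 0.000861% in CMT-47 and 0.00648% in CMT-119, against 1.68% in CMT-27 and 2.13% in CMT-12. It was also low in CMT-28, CMEC2 and CMEC3, at 0.00236%, 0.0198% and 0.00260%. miR-141 was at the floor in all 8 libraries, also in CMT-27 and CMT-12, where this list was highest. miR-200b and miR-429 were at the floor in all 3 CMEC samples, called epithelial in the design text, and in CMT-28, CMT-47 and CMT-119. miR-200c had 5, 9 and 9 reads in CMEC1, CMEC2 and CMEC3. miR-203 and miR-205 had 3 reads each in CMEC1, 4 and 2 in CMEC2 and 0 in CMEC3. miR-200a had 2 reads in CMEC2 and 0 in CMEC1 and CMEC3.

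The mesenchymal or smooth-muscle-like list (miR-143, miR-145, miR-199, miR-214, miR-152 and miR-22) was summed in the same way. It was 3.03% in CMEC1 but 15.3% in CMT-47, 19.1% in CMEC2 and 14.0% in CMEC3, so miR-140 was high at either level of it. The remaining libraries had 0.953% (CMT-27) to 7.67% (CMT-119). miR-214 was at the floor in CMEC1, CMT-47, CMT-119 and CMT-27 and reached 65.2 in CMEC2 and 51.3 in CMEC3.

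Blood cell markers (miR-451, miR-144, miR-486, miR-223, miR-142 and miR-150) summed to at most 0.116% in any library, in CMT-12, and to 0.000495% in CMEC1. Muscle and liver markers (miR-1, miR-206, miR-133a and miR-122) made up 9.77% in CMT-12, nearly all of it miR-122, and 1.496% in CMEC2, against 0.0448% in CMEC1, 0.246% in CMT-47 and 0.350% in CMT-119. limma called 0 members of these 4 marker lists, against 0.00% of all miRNAs tested. Of their tested members, 2 of 6 mesenchymal and 2 of 3 muscle or liver miRNAs had an unadjusted p under 0.05, and 0 of 4 epithelial and 0 of 4 blood cell miRNAs did, against 10.9% of all. The part of other cell types in the level of miR-140 was not tested. In vesicle RNA of this kind, fewer vesicles carrying miR-140 and less miR-140 per vesicle cannot be told apart.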

How the data were processed

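Vesicle RNA was extracted from 5 mL of conditioned medium, and 500 ng per sample entered small RNA libraries read as single reads of 50 bases, per the labels' protocols. The authors deposited a table of normalised signal with 511 mature miRNA loci in rows and the 8 libraries in columns. The genome build is canFam3 per the submitters' processing notes. The aligner, the counting program and the method of normalisation were not given in the sources used here.

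Where a miRNA had more than 1 locus, that with the largest mean signal stood for it, leaving 452. Reads were recovered by dividing by 1 step per library. Values at the floor of 1 count as 0 reads, though up to 2 reads could lie there where a step is small. The 193 miRNAs above the floor in at least 3 libraries were fitted as log2(signal + 1) with limma 3.58.1 (intensity trend) in R 4.3.3, with Benjamini-Hochberg adjustment at 0.05. The fold change on this scale understates low miRNAs. Shares were compared by exact permutation. The model was tested on simulated data. All pairs of libraries differed beyond sampling noise (chi-square per degree of freedom of 92.7 or more).

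Named were the 8 abundant miRNAs with the highest and the 4 with the lowest rho, the list members, the nearest loci, miR-21, miR-30a, miR-143 and miR-148a. miRNAs sharing the seed of miR-140 could not be found without sequences. The members and lists were chosen with earlier results of these data known. Alternatives covered the pseudocount (0.1 and 10), filter, scaling, weights, trend, each library left out, the total behind the share and the scale and pool of the likeness.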

Additional observations from a re-analysis of the deposited data

Results flagged for a closer look

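A search for a tumour line lying far from the other 4 covered 41 results and found 7. Chance flags about 1 in 20 where values are not tied. For miR-451, miR-144, miR-142 and miR-150 most tumour lines were tied at the floor, so that rate does not apply to them. Neither the share nor the log2 signal of miR-140 was among the 7, and the 3 CMEC samples were too few to screen. All 7 are log2(signal + 1) values of listed miRNAs. miR-199 was 10.66 in CMT-28 and 4.29 in the next line. miR-22 was 11.17 in CMT-12, below the 12.58 of the next line. In CMT-12, miR-451 was 5.42, miR-144 3.36 and miR-142 4.85, against 1.48, 1.48 and 1 in the next line. These were only 18, 4 and 12 reads in CMT-12, the library with the fewest recovered reads. miR-150 was 2.16 in CMT-27 and miR-133a 2.37 in CMT-47, both few reads above the floor.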

How the results depend on the processing

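The difference of miR-140 between groups passed the threshold under none of the alternatives run. Its sign turned to -0.088 with quantile normalisation, to -0.37 with limma-voom on recovered reads (chosen after seeing the data) and to -0.79 without CMEC2. With each library left out it ran from -0.79 to 3.39. The causes were not tested. The number of miRNAs called rose from 0 to 15 with sample weights and ran from 0 to 6 with each library left out. The difference in share ran from -3.15 to 0.816 percentage points with each library left out and was 0.59 as a difference of log2 shares. Of the 8 miRNAs most alike to miR-140, 6 or 7 remained with each library left out. With pools of a mean share of at least 0.01% and 1%, 4 and 2 remained, since the pools then held other miRNAs or fewer of them. miR-30a had the highest rho alone in the 1% pool and per read of miR-21. It was tied with miR-191 in deposited signal, with miR-221 in the 0.01% pool, and with miR-221, miR-23a or both in 5 of the 8 fits that left out a library. miR-8859a led without CMT-27, miR-340 without CMT-12 and miR-23a without CMEC1. No paired analysis was run, because the labels give no pairing of tumour lines with normal samples. The count models were not run, because the floor hides low reads, and voom was run without TMM factors. The limma-voom result rests on the same recovered reads and has the same limit. With 37 reads in CMEC2 and 102 in CMT-12, depth limits miR-140 most there.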
